A study of Saccharomyces cerevisiae with 4 samples.

Results

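The 8 genes described here carry the chemical conversation of budding yeast before mating. Of these, 5 were a-specific (MFA1, MFA2, STE2, BAR1 and STE6) and 3 alpha-specific (MF(ALPHA)1, MF(ALPHA)2 and STE3), out of 6002 open reading frames (ORFs) of the Saccharomyces cerevisiae genome annotation, build R64. They were taken by name, each with 600 bases on either side and both strands. These windows held 1097 of the 425462 distinct RNA molecules listed and 6304 of the 1833796 reads. A distinct molecule here is 1 pair of start and end positions, which can hold many reads. The cells were the strain FSY3636, which has mating type a (MATa), derives from S288c and lacks the gene RRP6, replaced by kanMX4. Rrp6 is the nuclear subunit of the RNA exosome, a complex that trims and destroys RNA. Cells grew to mid-log phase at an optical density of 1 in YPAD, a rich medium with glucose. TIF-Seq, which ligates the capped start of an RNA to its polyadenylated end, was applied to 2 cultures with 2 library preparations of each. All 4 libraries carried the same deletion, and their reads stood in 1 pooled count column. No wild-type or alpha-type sample was analysed here, so a gene's level is not compared between strains, and the spread between cultures cannot be given.

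Haploid yeast cells come in mating types a and alpha. Cells of type a secrete a-factor, encoded by MFA1 and MFA2 and exported by the transporter Ste6, and sense alpha-factor through the receptor Ste2. They also secrete the protease Bar1, which cleaves alpha-factor. Cells of type alpha make alpha-factor from MF(ALPHA)1 and MF(ALPHA)2 and sense a-factor through Ste3. In alpha cells the repressor alpha2, together with Mcm1 and the Tup1-Cyc8 corepressor, shuts off the a-specific genes from an operator upstream of each. In a cells the activator alpha1 is missing, so the alpha-specific genes lack their activator.

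The search was for that operator, written as CATGTNNNTACCNNNNNNGG and read on both strands. It is an operator of a-specific genes, so its presence at them is a description and not a test. In the 600 bases before the start codon to 50 after it, 4 of the 5 a-specific genes and 0 of the 3 alpha-specific genes held it, against 0.117% of all 6002 ORFs, which is 7 ORFs. The other 3 ORFs were GYP8, the divergent neighbour of STE2 that shares its intergenic region, AAC1 and FET3. In a window of 250 bases before the start codon the operator was found at 2 of 5 a-specific genes, STE2 and STE6, against 0.05% of ORFs, but not at MFA2 and BAR1, whose sites lie farther upstream; the wider window was chosen after seeing the data. MFA1 missed it by 2 of the 11 fixed letters, the substitutions C1T and A2G, counted from 1 at the 5′ end of the motif, with the motif letter first. The 32 bases at the best match of each a-specific gene are shown because 4 of the 5 held the operator. At MFA1 2 placements tied as best, at 9 of the 11 letters, and only 1 of them is shown and counted here. Capitals mark the fixed letters that matched.
MFA1, chrIV:1384942-1384973, plus strand: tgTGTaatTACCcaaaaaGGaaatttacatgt
MFA2, chrXIV:352163-352194, plus strand: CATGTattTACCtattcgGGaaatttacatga
STE2, chrVI:82350-82381, minus strand: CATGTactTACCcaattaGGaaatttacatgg
BAR1, chrIX:322078-322109, plus strand: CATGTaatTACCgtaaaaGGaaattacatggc
STE6, chrXI:46476-46507, minus strand: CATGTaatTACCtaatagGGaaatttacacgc
At 17 of the 32 positions the base was the same in all 5. At STE2 the site lies on the other strand from the gene. The base of the run farthest from the gene stood 212 to 264 bases upstream of the start codon. A shorter core, TACCNNNNNNGGAAATT, was written after these sequences had been seen. It occurred within 600 bases of all 5 a-specific genes and of none of the 3 alpha-specific genes, against 0.2% of ORFs (12). AGA2 and ASG7, both a-specific, were among the other 7, with GYP8, MCM7, CDC6, ELO1 and ERG5.

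Other promoter letters were searched in the same way. The pheromone response element, the binding site of the activator Ste12, was searched as TGAAACA on both strands. Within 250 bases it occurred at 4 of 5 a-specific genes and 1 of 3 alpha-specific genes, MF(ALPHA)2, against 7.5% of ORFs; within 600 bases it occurred at 5 of 5 and 1 of 3, against 15.9%. TATAAA, the usual core of a TATA box, occurred at 4 of 5 and 2 of 3, against 45.2% of ORFs, and within 600 bases at 5 of 5 and 2 of 3, against 66.3%. In the promoter runs that follow, 250 bases that end just before the most used start, capitals mark the operator core, the pheromone response element (MFA2 only) and TATAAA, in that order. They are given for the a-factor genes because these had the most reads.
MFA1, chrIV:1384898-1385147, plus strand: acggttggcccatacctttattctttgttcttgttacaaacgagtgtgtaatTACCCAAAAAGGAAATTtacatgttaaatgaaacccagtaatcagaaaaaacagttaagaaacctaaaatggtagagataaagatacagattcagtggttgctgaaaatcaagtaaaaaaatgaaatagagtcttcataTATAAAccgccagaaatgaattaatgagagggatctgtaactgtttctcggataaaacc
MFA2, chrXIV:352123-352372, plus strand: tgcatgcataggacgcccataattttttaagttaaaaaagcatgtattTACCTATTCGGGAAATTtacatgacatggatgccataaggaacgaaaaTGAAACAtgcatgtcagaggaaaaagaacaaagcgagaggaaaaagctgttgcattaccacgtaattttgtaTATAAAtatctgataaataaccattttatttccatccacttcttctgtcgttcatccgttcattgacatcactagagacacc
The TATAAA of the gene strand began 59 bases before the most used start at MFA1, 82 at MFA2, 102 at BAR1 and 58 at STE6. At STE6 that start rests on 4 reads, none of which covers the ORF. STE2 held none within 250 bases. A match is a description of letters and does not show that a factor was bound.

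Of the a-specific genes 4 were read through in full, and STE6 was not; the alpha-specific genes were almost not read through at all. Levels are reads on molecules that cover the whole ORF, in CPM of all reads, where 1 read equals 0.545 CPM, with exact 95% Poisson intervals that span counting error only. The 5 a-specific genes had 5494 covering reads together, or 2996 CPM (2917 to 3076). The 3 alpha-specific genes had 2, or 1.09 CPM (0.132 to 3.94). At least 1 covering read was found at 4 of 5 a-specific and 1 of 3 alpha-specific genes, against 73.9% of all ORFs, and at least 10 at 4 of 5 and 0 of 3, against 48.1%. Sense reads of any kind that overlap the ORF numbered 5811 and 51, a ratio of 114 (86.6 to 150). The a-factor genes carried most of it: without MFA1 and MFA2 the counts were 366 and 51, a ratio of 7.18 (5.36 to 9.61). In the order MFA1, MFA2, STE2 and BAR1 the intervals of neighbours did not overlap, while those of STE6 and the 3 alpha-specific genes, with 0 to 2 covering reads, did.

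**Figure D1:**
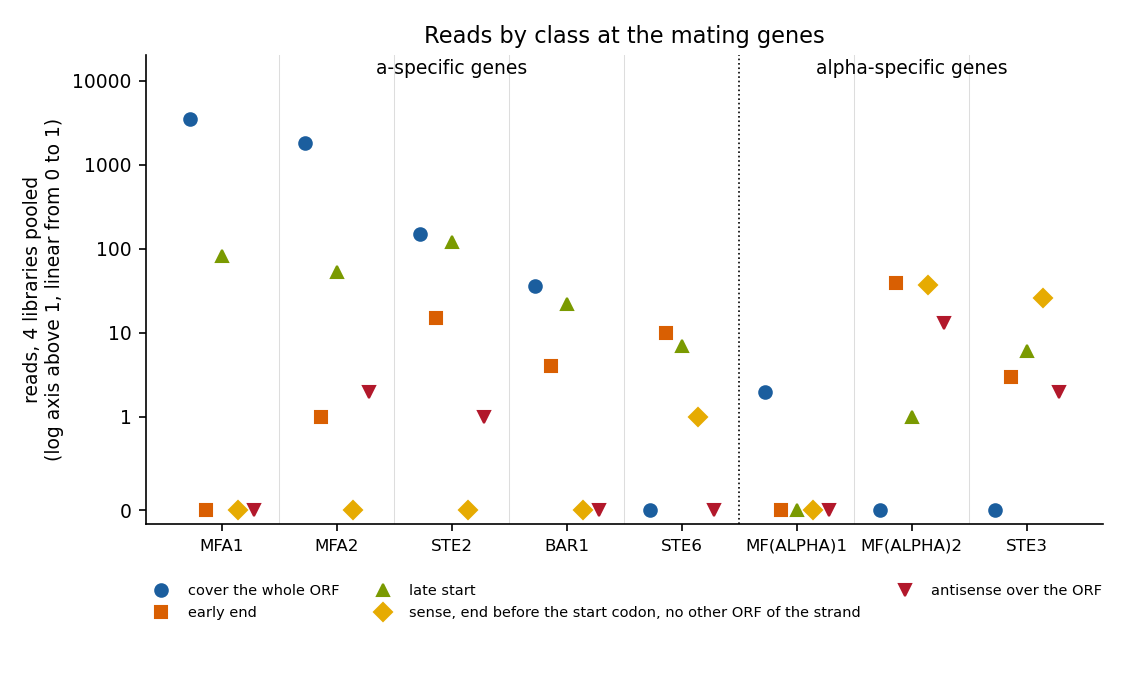
Reads of the 4 pooled libraries (log axis above 1, linear from 0 to 1) for each of the 8 genes, by how the molecule lies on the ORF: covering it, ending early, starting late, ending before the start codon without touching another ORF of its strand, or antisense over it. Covering reads fall from 3513 at MFA1 to 36 at BAR1 and are at 0 at STE6, MF(ALPHA)2 and STE3, while early ends and upstream molecules stand highest at MF(ALPHA)2.

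The 2 a-factor genes led. MFA1 (YDR461W, chrIV:1385176-1385286, plus strand, 111 bases) had 3513 covering reads, 1916 CPM (1853 to 1980), and was 88th of the 6002 ORFs. MFA2 (YNL145W, chrXIV:352414-352530, plus strand, 117 bases) had 1796, 979 CPM (935 to 1026), and was 162nd. MFA1 stood 1.96 times as high as MFA2 (1.8 to 2.1). A read stands for a whole RNA and not for a stretch of it, so counts were not divided by length. Because long ORFs were covered less often, each gene is set beside the ORFs within 20% of its length. Among 38 such ORFs the median was 0 covering reads, and 1 had more than MFA1. Of the 38 near the length of MFA2, 2 had more. How reads that match more than 1 place were handled is not given in the sources used here, which bears on MFA1 and MFA2 and on the alpha-factor pair, whose coding sequences resemble each other within each pair.

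At MFA1 the covering reads spread over 245 distinct molecules but few sites. Distances run from the first base of the start codon or the last base of the stop codon. The start 28 bases before the start codon took 42.1% of covering reads (Wilson 95% interval 40.5 to 43.7). The starts at 23 and 19 bases took 23.8% and 19.1%. Ends lay in a band, at 148 bases past the stop codon in 36.2%, at 146 in 28.5% and at 145 in 13.4%. From the 5th to the 95th percentile the ends ran from 144 to 157 bases. The leader was thus short, with 98.4% of covering reads starting within 60 bases of the start codon.

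MFA2 had 1 dominant end instead of a band. The end 175 bases past the stop codon took 75.3% (73.2 to 77.2) of its covering reads, and the next, 176 bases, took 10.7%. Its starts stood 35.5% at 41 bases, 28.0% at 44 and 7.74% at 62 before the start codon. From the 5th to the 95th percentile they ran from 30 to 62 bases, against 17 to 34 at MFA1. Their quartiles were closer together, at 41 and 44 against 23 and 28. The covering reads formed 147 distinct molecules from 41 starts and 38 ends, against 50 starts and 67 ends at MFA1.

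**Figure D2:**
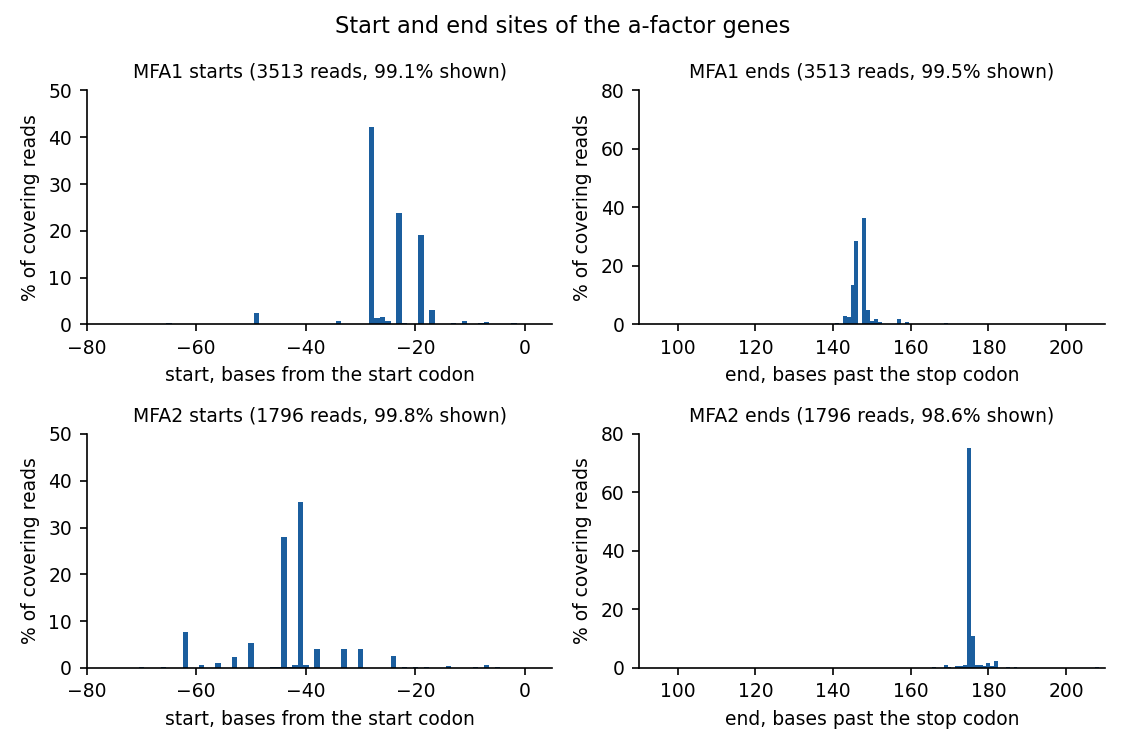
Share of covering reads (%) at each start position, in bases from the start codon, and each end position, in bases past the stop codon, for MFA1 (3513 reads) and MFA2 (1796 reads), 4 libraries pooled. MFA1 uses 3 main starts within 28 bases of the start codon and a band of ends from 145 to 148, whereas MFA2 ends at 175 in 75.3% of reads.

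Ends are shown with the genome bases around them because a run of A in the genome can be primed as if it were a poly(A) tail. Each run holds the last 10 bases before the most used end in lower case and the next 10 genome bases in capitals.
MFA1, chrIV:1385425-1385444: taccctgtacCTGCTTTTGT
MFA2, chrXIV:352696-352715: catgtttttcTTTTCTGATA
STE2, chrVI:84151-84170: tattgtttcgAAAAATAGCA
BAR1, chrIX:324172-324191: aaagcataatAAAAAAACAA
The 10 bases after the end held 0 A at MFA1, 2 at MFA2, 7 at STE2 and 9 at BAR1. An end was called A-rich when these 10 bases held at least 6. By that measure 4 of the 3513 covering reads of MFA1 and 3 of the 1796 of MFA2 ended before A-rich genome, against 48 of 149 at STE2 and 25 of 36 at BAR1. Whether those ends arose from priming on the genome-encoded A was not tested.

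At both a-factor genes the share of an end differed with the start. At MFA2 the end at 176 took 27.3% (23.6 to 31.3) of the 502 reads from the start at 44 and 4.08% (2.80 to 5.91) of the 637 from the start at 41. At MFA1 the end at 145 took 22.1% (19.1 to 25.3) of reads from the start at 19, 15.9% (14.1 to 17.8) from 28 and 6.95% (5.41 to 8.88) from 23. These intervals treat reads as independent molecules. No value here tells copies made by PCR from separate molecules, and some of the sites differ by a few bases, so the part of copying in these differences was not tested.

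**Figure D3:**
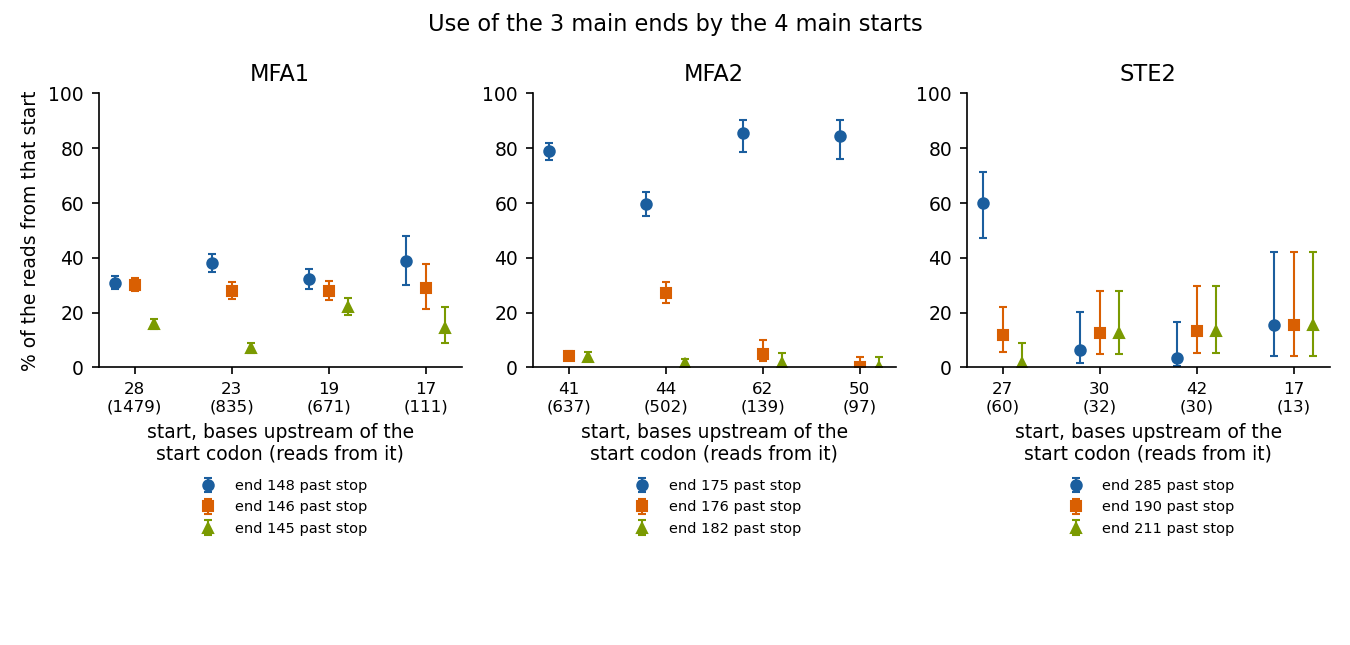
Share (%) of the reads from each of the 4 main starts (in bases upstream of the start codon, with their reads in brackets) that finish at each of the 3 main ends (in bases past the stop codon), for MFA1, MFA2 and STE2; bars are 95% Wilson intervals. At MFA2 the end at 176 stands at 27.3% for the start at 44 and 4.08% for the start at 41. At STE2 the end at 285 holds 36 of the 60 reads from the start at 27, which are 1 pair of start and end.

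Beyond the covering reads the a-factor genes had little. Late starts, which begin inside the ORF and run past the stop codon, made up 2.25% of the 3595 sense reads of MFA1 and 2.86% of the 1850 of MFA2. Early ends, which start at or before the start codon and stop inside the ORF, numbered 0 at MFA1 (0 of 3595, Wilson upper limit 0.107%) and 1 at MFA2. Of the 53 late-start reads of MFA2, 27 shared 1 pair of start and end, with the start 61 bases into the ORF.

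STE2, the gene of the alpha-factor receptor (YFL026W, chrVI:82580-83875, plus strand, 1296 bases), had 149 covering reads, 81.3 CPM (68.7 to 95.4). It was 946th of all ORFs and above most of its own length, with a median of 14 covering reads over 1354 ORFs and 171 of them higher. STE2 had 285 sense reads against 9 for STE3, the receptor gene of the other mating type and of similar length, a ratio of 31.7 (16.5 to 60.8). Its starts were tight: 60 reads began 27 bases before the start codon, 32 at 30 and 30 at 42.

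The far end of STE2 was wide. Among covering reads 77 ended before 220 bases past the stop codon and 72 at or beyond it. The most used end, at 285 bases, held 42 reads, followed by 190 bases with 19 and 211 bases with 12. BST1, the convergent neighbour on the other strand, spans chrVI:84145-87234, and 55 of the 149 covering reads of STE2 (36.9%, 29.6 to 44.9) ended inside it. Of those, 36 were reads of 1 distinct molecule, without which it was 19 of 113 (16.8%, 11.0 to 24.8). BST1 itself had 0 covering reads. Long ORFs such as BST1 were covered less often, so this 0 does not show that it is silent. From the start at 27 bases, 36 of 60 reads ended at 285 bases, against 6 of 89 from the other starts. These 36 reads share that 1 pair of start and end, the next most read pair having 7. Without this pair the start at 27 necessarily gave 0 of 24. Whether the 36 reads are copies of fewer RNAs was not tested.

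Truncated molecules were a larger part of STE2 than of the a-factor genes. Covering reads were 52.3% (46.5 to 58.0) of its sense reads, late starts 42.1% and early ends 5.26%. Over the 549 ORFs of like length with at least 50 sense reads, the medians were 68.8%, 25% and 1.16%. The quartiles there were 46.7% and 80.2% for covering reads, 15.3% and 40.0% for late starts, and 0% and 5.26% for early ends. STE2 was thus within the quartiles for covering reads, slightly above them for late starts and at the upper one for early ends. The 120 late-start reads made 92 molecules from 83 starts, scattered from 6 to 1269 bases into the ORF. One of them, from 1171 bases to 294 past the stop codon, held 17 reads and the next 3. The 15 early ends were 15 distinct molecules. They started 84 to 15 bases before the start codon, within the range of the covering reads, and stopped between 288 and 772 bases into the ORF, none before A-rich genome.

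**Figure D4:**
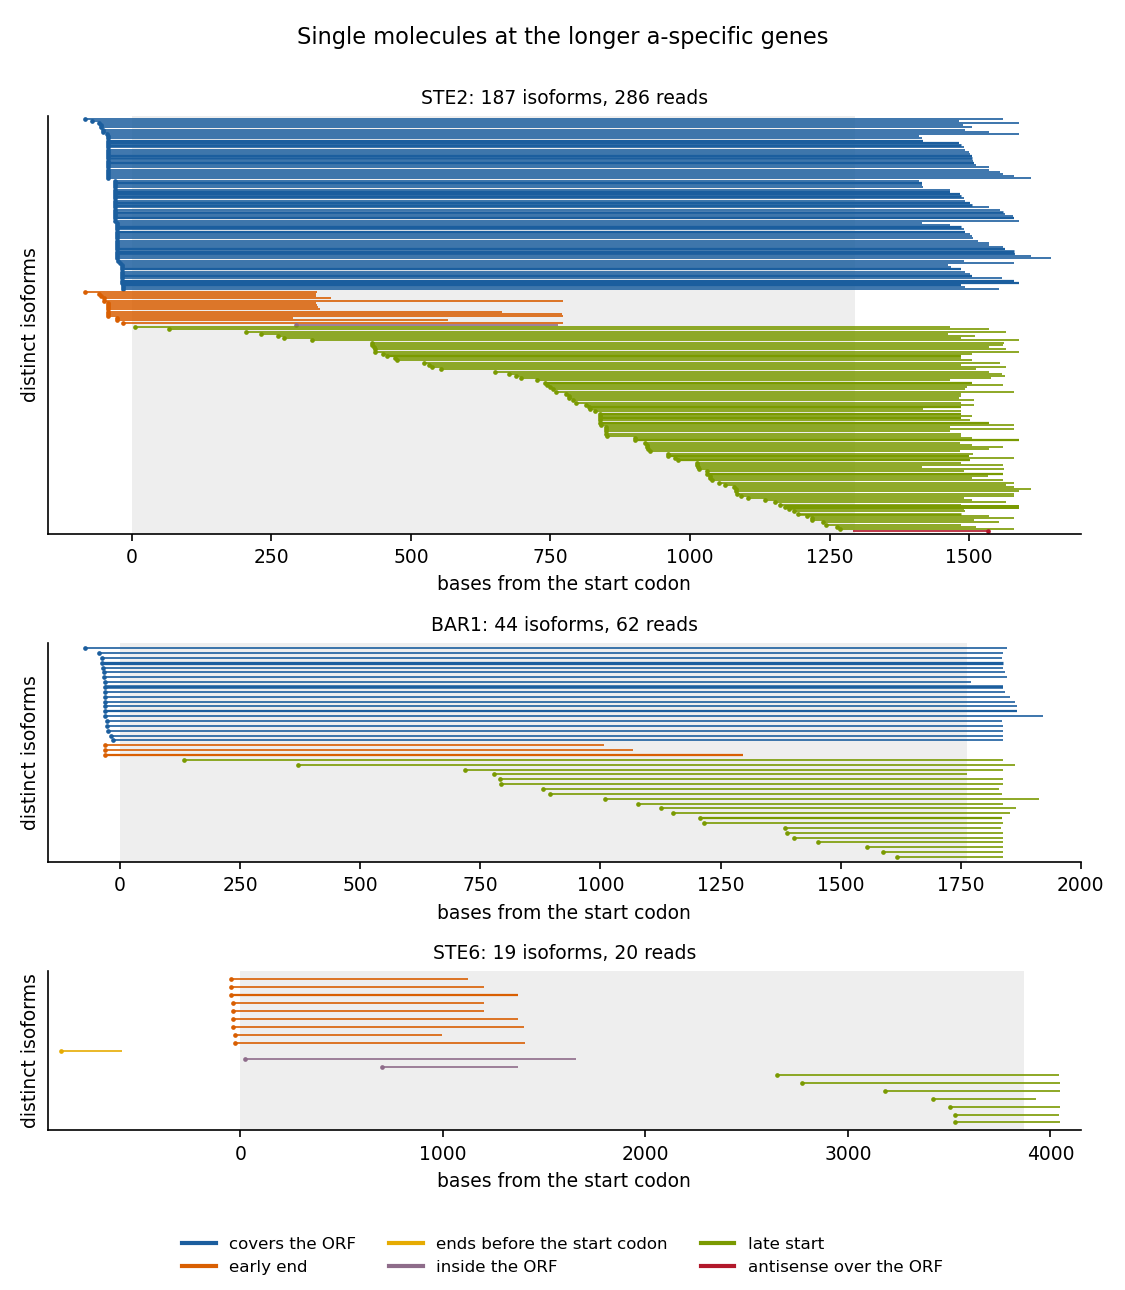
Each line is 1 distinct RNA molecule at STE2, BAR1 or STE6, drawn from its start (dot) to its end in bases from the start codon; line width grows with reads, shading marks the ORF, and colour gives the class. STE2 and BAR1 show a block of covering molecules above many late starts, whereas STE6, with 19 sense reads, has early ends and late starts and none that spans its 3873 bases.

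BAR1, the gene of the secreted protease that cleaves alpha-factor (YIL015W, chrIX:322342-324105, plus strand, 1764 bases), had 36 covering reads, 19.6 CPM (13.7 to 27.2). Of 1266 ORFs of like length, with a median of 5, 207 had more. Starts at 32 and 37 bases before the start codon held 18 and 8 of the 36 reads, and the end at 76 bases past the stop codon held 23. That end is the one followed by 9 A in 10 bases, and 17 of the 22 late-start reads also ended before A-rich genome. Its 4 early ends all started at 32 bases and stopped 1007 to 1297 bases into the ORF. Covering reads were 58.1% (45.7 to 69.5) of its 62 sense reads, against a median of 41.4% and quartiles of 18.7% and 65.8% over 375 ORFs of like length.

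STE6, the gene of the a-factor exporter (YKL209C, chrXI:42423-46295, minus strand, 3873 bases), had no molecule that spanned it. Its exact two-sided interval reaches 2.01 CPM, and the one-sided limit of 3 reads is 1.64 CPM. Of 340 ORFs of like length 20.3% had any covering read, so length and level cannot be told apart here. Its 19 sense reads (10.4 CPM, 6.24 to 16.2) were near the median of 18 for those ORFs. There were 10 early ends that began 46 to 27 bases before the start codon and stopped 994 to 1407 bases into the ORF, 2 of them before A-rich genome. They made up 52.6% (31.7 to 72.7) of the sense reads, against a median of 2.94% (quartiles 1.15% and 10.5%) over 65 ORFs of like length with at least 50 sense reads. STE6, with 19, is itself below that minimum, so these ORFs are better read than STE6. Another 7 were late starts from 2648 bases on, of which the ends reached at most 176 bases past the stop codon, and 2 lay inside. Late starts were 36.8% (19.1 to 59.0), against a median of 92.4% over those 65 ORFs. Starts just ahead of the start codon and ends just past the stop codon were thus both seen, in separate molecules.

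The alpha-specific genes differed from one another in what was left. MF(ALPHA)1, the main alpha-factor gene (YPL187W, chrXVI:193648-194145, plus strand, 498 bases), had 2 sense reads, both covering, 1.09 CPM. One began 54 and the other 610 bases before the start codon, and they ended 218 and 229 bases past the stop codon. Among 529 ORFs of like length, with a median of 73 covering reads, 419 had more and 98 had fewer. MF(ALPHA)2, the lesser alpha-factor gene (YGL089C, chrVII:344791-345153, minus strand, 363 bases), and STE3, the a-factor receptor gene (YKL178C, chrXI:113215-114627, minus strand, 1413 bases), had 0 covering reads, where 68.9% and 83.3% of ORFs of like length had at least 1.

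MF(ALPHA)2 had 40 sense reads (21.8 CPM, 15.6 to 29.7), and 39 of them (97.5%, 87.1 to 99.6) were early ends. These molecules stopped 5 to 85 bases into the ORF. Of the 39 reads, 24 shared 1 pair of start and end, from 594 bases before the start codon to 8 bases into the ORF. The next pair had 2. With 37 reads that stopped short of the start codon, 75 reads on 48 molecules started within 700 bases upstream and ended before the stop codon without touching another ORF of the strand. They are called upstream RNAs here. Their median start was 594 bases and their median end 5 bases from the start codon, 53 ended within 100 bases of it, and 1 ended before A-rich genome. Of the 72 sense reads that began more than 500 bases upstream, 33 began at 594. That site lies 239 bases from the first base of SNR10, a small nucleolar RNA gene that is transcribed away from it (chrVII:345986-346230, plus strand). The ORF YGL088W, which overlaps SNR10 on the same strand, begins nearer to it.

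STE3 also had upstream RNAs, but most stopped well before the ORF. Its 9 sense reads (4.91 CPM, 2.24 to 9.32) were 3 early ends and 6 late starts. Another 26 reads stopped before the start codon, so upstream RNAs numbered 29, on 26 molecules. All began 690 to 645 bases upstream, 14 of them at 689, and ended between 457 bases before and 43 bases past the first base of the start codon, 4 before A-rich genome. The median end was 358 bases before it, and 7 of the 29 ended within 100 bases of it, against 53 of 75 at MF(ALPHA)2. The start at 689 lies 184 bases past the stop codon of LST4, the next gene upstream on the same strand (chrXI:115500-117986). The 6 late starts ended 190 to 280 bases past the stop codon, 3 before A-rich genome.

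**Figure D5:**
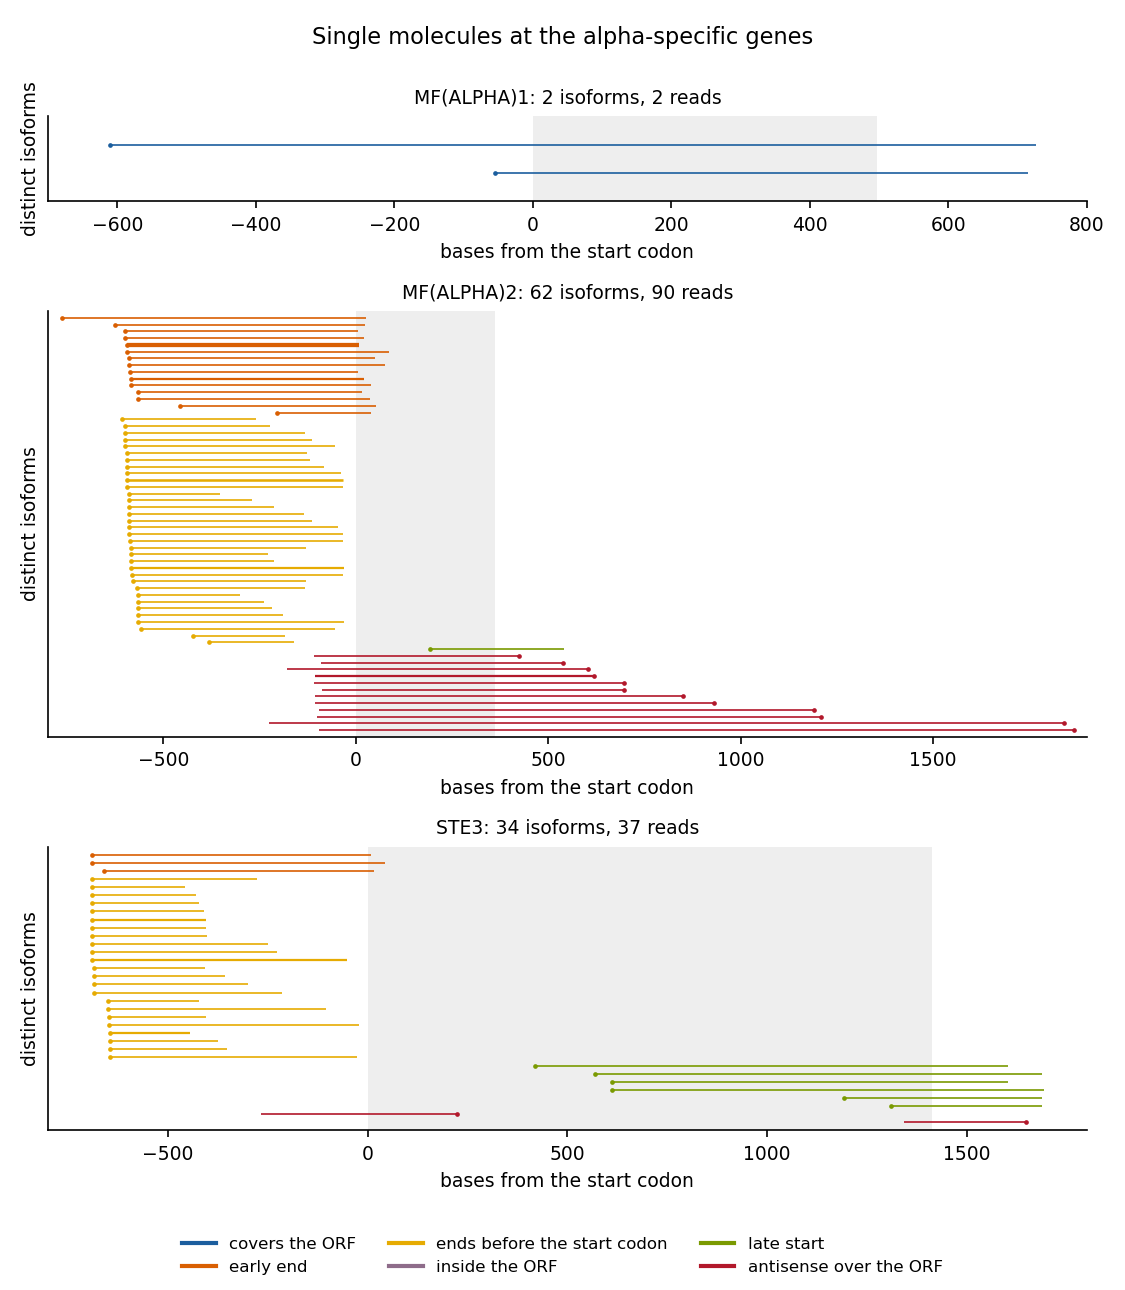
Each line is 1 distinct RNA molecule at MF(ALPHA)1, MF(ALPHA)2 or STE3, drawn from its start (dot) to its end in bases from the start codon; line width grows with reads, shading marks the ORF, and colour gives the class. Upstream molecules begin near 594 bases before MF(ALPHA)2 and 689 before STE3 and end before or just inside the ORF, and 13 antisense reads span MF(ALPHA)2.

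Upstream RNAs of at least 10 reads were present at 2 of 5 a-specific genes (STE2 and STE6) and 2 of 3 alpha-specific genes (MF(ALPHA)2 and STE3), against 12.6% of ORFs. The kinds differed in where they began. At STE2 and STE6 they were the early ends from the usual start, at most 84 bases upstream. Starts 500 to 700 bases upstream, limits set after these data had been seen, gave at least 10 reads at 0 of 5 a-specific genes and at MF(ALPHA)2 (71 reads) and STE3 (29 reads), against 2.4% of ORFs (144). Ranked by those reads the pair stood 27th and 57th of 6002. By all upstream RNA reads with starts within 700 bases, MF(ALPHA)2 was 131st and STE3 333rd. Early ends as a class were present at 4 of 5 a-specific and 2 of 3 alpha-specific genes, against 49.1% of ORFs, with 30 and 42 reads in all. Without its largest molecule MF(ALPHA)2 had 15 early ends in place of 39. No sample with RRP6 was analysed here, so the part of the deletion in these RNAs was not tested.

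Antisense reads over the ORFs were few: 3 at the a-specific genes (2 at MFA2 and 1 at STE2) and 15 at the alpha-specific genes (13 at MF(ALPHA)2 and 2 at STE3). At least 1 was found at 2 of 5 and 2 of 3 genes, against 76.5% of ORFs. None of the 8 had more antisense than sense reads, against 19.6% of ORFs. All 13 antisense reads of MF(ALPHA)2, on 12 molecules, ran through the whole ORF, and 11 of them ended 80 to 120 bases beyond its start codon. They came from the direction of LIF1, the convergent neighbour (chrVII:343319-344584, plus strand): 2 covered LIF1, 9 began inside it and 2 began past it. LIF1 had 5 covering reads.

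The flanks held reads of the neighbouring genes on both strands. Downstream of MFA1, 43 antisense reads came from CMI8, 35 of them ending before A-rich genome, and upstream of MFA1, 35 antisense reads touched no ORF of their own strand. Of these, 34 overlapped TFB3, the gene upstream of MFA1, on its opposite strand, and none ran along its whole length. BAR1 had 44 upstream antisense reads with starts 568 to 365 bases before its start codon, all of them antisense to its neighbour SNL1, and 6 more that reached VID28. On the sense strand, 81 reads of SNL1 ended 367 to 122 bases before BAR1. Downstream of MF(ALPHA)1, 26 antisense reads came from UIP4, ending 37 bases past its stop codon at the nearest. With a narrower flank, 3 windows lost the most antisense reads. With 300 bases, 45 of 78 reads were left at MFA1, 3 of 21 at MFA2 and 0 of 53 at BAR1. It also left 6 of 11 at STE3, 2 of 5 at STE2 and 10 of 12 at STE6, and all at MF(ALPHA)1 and MF(ALPHA)2.

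Other genes whose activity depends on mating type were less sharply divided once set beside ORFs of their length. The a-specific AGA2, the binding subunit of a-agglutinin, had 681 covering reads (371 CPM, 344 to 400), against a like-length median of 36.5. ASG7, which acts on pheromone signalling, had 54 (29.4 CPM, 22.1 to 38.4), below its like-length median of 66. SAG1, the alpha-agglutinin of the other mating type, had 0 covering reads and 10 late starts, where the like-length median was 3. Build R64 carries alpha at the mating type locus, so the a1 gene is listed only at the silent copy HMR. There HMRA1, the a1 gene, had 46 covering reads (25.1 CPM, 18.4 to 33.5), against a like-length median of 74. MATALPHA1, MATALPHA2, HMLALPHA1, HMLALPHA2 and HMRA2 had 0 sense reads. The alpha copies at MAT and HML share their sequence, so reads from them could not be told apart and may not have been placed. HMRA2 may share sequence with other mating type genes, which was not checked. Its 0 therefore does not show that its RNA was absent.

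By the share of genes covered, pathway genes outside these groups stood near the background, while single genes stood well above or below ORFs of their length. Over all 44 other genes looked at, 29 had a covering read and 17 had at least 10, with a median of 4 against 8 over all ORFs. Without the a-specific and alpha-specific genes and the mating type loci, it was 26 and 14 of 35, with a median of 7, where 73.9% and 48.1% of all ORFs reach those counts. In the G protein and kinase list 13 of 15 were covered, where the share among ORFs of like length averaged 75.3%. The median of this list was 8 covering reads, the same as over all ORFs. All 3 subunits of the G protein that couples to Ste2 and Ste3 were read through in full, with 361 covering reads at GPA1 (alpha, 197 CPM), 211 at STE4 (beta, 115 CPM) and 308 at STE18 (gamma, 168 CPM). Their like-length medians were 10, 16 and 9. FUS3, the mating MAP kinase, had 245 (134 CPM), against a like-length median of 26. GPA1 also had 357 late starts among 725 sense reads. Of the 7 a-factor processing genes 5 were covered (like-length average 72.3%), led by RAM2, a farnesyltransferase subunit, with 125 reads, and STE14, which methylates a-factor, with 83. The like-length medians of RAM2 and STE14 were 33 and 60. RAM2 lay under 880 antisense reads. In the alpha-factor processing list 2 of 3 were covered (like-length average 60.5%), with 13 reads in all. The 7 genes that pheromone induces had 30 covering reads in all, with 5 covered (like-length average 68.3%) and 1 at 10 or more. Of the 3 regulators, MCM1 had 33 covering reads, against a like-length median of 41. CYC8 and TUP1, named after their values were seen, had 0, where the like-length medians were 0 and 2. They had 14 and 5 sense reads, so the 0 does not show that they are silent.

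Early ends of 3 of these pathway genes show how the class varied, chosen after their values were seen. DIG1, an inhibitor of Ste12, had 52 covering reads and 70 early ends among 132 sense reads (53.0%, 44.6 to 61.3), of which 57 ended before A-rich genome. STE20, a kinase of the pathway, had 21 among 72 (29.2%, 19.9 to 40.5), with a median end 13 bases into the ORF. FUS3 had 33 among 312 (10.6%, 7.63 to 14.5), with a median start 472 bases before the start codon, a median end 39 bases into the ORF and 3 before A-rich genome. These FUS3 molecules, with a long leader and an end just inside the ORF, stood beside 245 covering reads, where MF(ALPHA)2 had 0.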

How the data were processed

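TIF-Seq libraries came from 2 cultures with 2 preparations each. The tools named, per the submitters' processing notes, are Novoalign 2.07.10 and CASAVA, and the genome build is R64. Roles, settings, read filters and the handling of PCR copies were not given in the sources used here. The deposited table holds whole-number read counts for each pair of start and end position, in 1 column for all 4 libraries. It lists 425462 molecules, of which 306967 (72.1%) have 1 read, and 1833796 reads, so 1 read is 0.545 CPM and a count of 0 allows 3 reads, or 1.64 CPM.

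Each molecule was placed against the 6002 ORFs of the R64 annotation with Python 3.11.15, pandas 2.3.3 and SciPy 1.17.1, after the classifier had been checked on simulated molecules. Intervals are exact Poisson for counts and Wilson for shares, at 95%, and cover counting error only. With 1 pooled column no test across samples was made. Sequences were read from the R64 genome (RefSeq), at distances from the start codon in place of a promoter table. Upstream molecules count when they start within 700 bases. The members and all gene lists were chosen with earlier results of these data known. Named from the lists were genes with at least 20 covering reads, AGA2, ASG7, SAG1 and the mating type loci; others are marked. Alternatives were a minimum of 2 or 5 reads per molecule, all sense reads, a tolerance of 20 bases at both codons, a flank of 300 bases, merged sites, no A-rich ends and motif windows.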

Additional observations from a re-analysis of the deposited data

How the results depend on the processing

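The a-specific sum stayed above the alpha-specific sum with all sense reads and at both read minimums. The a-specific sum of 2996 CPM became 3169 with all sense reads, 2855 with at least 2 reads per molecule and 2655 with at least 5. The alpha-specific sum of 1.09 CPM became 27.8 with all sense reads and 0 with at least 2 or at least 5 reads per molecule. Both read minimums were chosen for these sums after seeing the data. Of the other pathway genes 29 had a covering read and 17 had at least 10. The operator was found at 2 members in 250 bases and at 4 in 600 bases, a window also chosen after seeing the data. A minimum of 2 reads per molecule took STE2 from 81.3 to 51.3 CPM and BAR1 from 19.6 to 10.4 CPM, and a minimum of 5 took them to 23.4 and 9.27 CPM, since most of their molecules had 1 read. Without A-rich ends the early ends of BAR1 went from 6.45% to 20% of sense reads, as most of its covering reads were left out. Median starts of MFA1, MFA2, STE2 and BAR1 were the same at both minimums, and the median end of STE2 went from 214 to 239.5 and 285 bases past the stop codon. A tolerance of 20 bases at both codons moved no member's level by more than its counting interval. No paired analysis was possible because the 4 libraries stand in 1 pooled column; for the same reason no library could be left out. Depth limits the alpha-specific genes and STE6, where a count of 0 does not show that a gene is silent.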
